A study of Macaca radiata with 4 samples.

Results

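The genes of TGF-beta, BMP and SMAD signalling were described in the corpus luteum of the female bonnet monkey (Macaca radiata), in animals in which LH had been given back after its withdrawal. Members were chosen by gene symbol alone, by a fixed pattern covering the BMP, GDF, TGF-beta and AMH ligands, the INHBB, INHBC and INHBE subunits, their receptors, the SMAD proteins, secreted antagonists, latency proteins, SMAD regulators and the ID genes, with FST, INHA and INHBA left out. The pattern found 59 genes, represented by 118 probe sets, of 14132 genes with a single symbol in the array annotation. Of these, 46 members lay above the filter on dim probe sets (a mean signal of about 90.7) and 13 did not. TGFB2, SMAD1, BMPR1A, BMPR2, ID2 and NOG were not analysed here.

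The rhLH group (replicates 3 and 4) had received 150 µg/kg of CET on luteal day 7 and, 24 h later, 20 IU/kg of rhLH, a recombinant LH, by intravenous injection. The PBS group (replicates 1 and 2) had received the same CET dose on the same day and PBS in place of the hormone, so that the animals' own LH secretion was inhibited in both groups, per the labels. Luteal tissue was taken 8 h after the injection, and each group has 2 Affymetrix rhesus arrays. The labels give 2 animals per group but do not tie arrays to animals, so p-values measure the spread between these arrays, which may in part be technical.

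Ligands of the TGF-beta family bind paired type I and type II receptors on the cell surface. The type I receptor phosphorylates receptor SMADs: SMAD2 and SMAD3 for TGF-beta and activin, SMAD1, SMAD5 and SMAD9 for BMPs and AMH. These join SMAD4 and enter the nucleus. Inhibitory SMADs, SMURF ubiquitin ligases and nuclear co-repressors limit the signal, and secreted antagonists hold ligands away from their receptors. In the ovary the family is known for its part in follicle growth, in the restraint of luteinization and in the tissue remodelling of the corpus luteum.

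PBS replicate 1 stood apart from the other arrays. Its Pearson correlation with them over kept probe sets was 0.752 to 0.780, against 0.940 to 0.947 among the other 3. Its 99th percentile of signal was 8886, against 12091 to 12459 on the others. Its median signal was higher, at 186, against 136 to 140 on the others. For the members the median absolute log2 difference between the mean of the rhLH arrays and PBS replicate 1 was 0.75, and that to PBS replicate 2 was 0.33. The signs of these 2 differences were opposite for 22 of 46 members, a share of 47.8%, as against 47.5% of all 10998 kept genes. Members described in full below are therefore given with their MAS5 signal on every array, replicates in number order within a group. Others are given more briefly. Where a log2 difference is split into a pair, that from PBS replicate 1 comes first. SEs are those of limma.

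SMAD7 was 3.30-fold lower with rhLH and was the single member whose rhLH arrays both lay at least 2-fold from both PBS arrays. TGFBR3, the co-receptor betaglycan, and BMP1, a matrix protease, were 1.74-fold and 1.73-fold higher, while SMAD3, which carries TGF-beta and activin signals, was 1.54-fold lower and TGIF1, a nuclear co-repressor of SMAD2 and SMAD3, 1.49-fold lower. No member passed the limma test at an adjusted p of 0.05 (smallest adjusted p 0.919, Benjamini-Hochberg over 31659 probe sets), and neither did any other probe set (0% called). At an unadjusted p under 0.05, 1 of 46 members was found, SMAD7, against 1.9% of all kept genes. The median log2 difference was −0.05 over the 46 members and 0.02 over all kept genes.

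The rhLH arrays lay above both PBS arrays for 5 members, or 10.9%, where 16.3% of all kept genes did so. They lay below both for 11 members, or 23.9%, where 16.1% of all genes did so. TGIF2LX, counted among the 11, passed the filter through its PBS signals alone. The split into members above and below depended on scaling. It was 6 above and 8 below after quantile normalization, and 9 above and 4 below when arrays were centred on their medians. Centring moved the median of all kept probe sets by 0.23. The shares of all kept genes under these scalings are not given here, so the rescaled splits describe the members only. The 2-fold rule was met by 0 members on the higher side and 1 on the lower side, beside 0.318% and 0.336% of all kept genes.

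**Figure D1:**
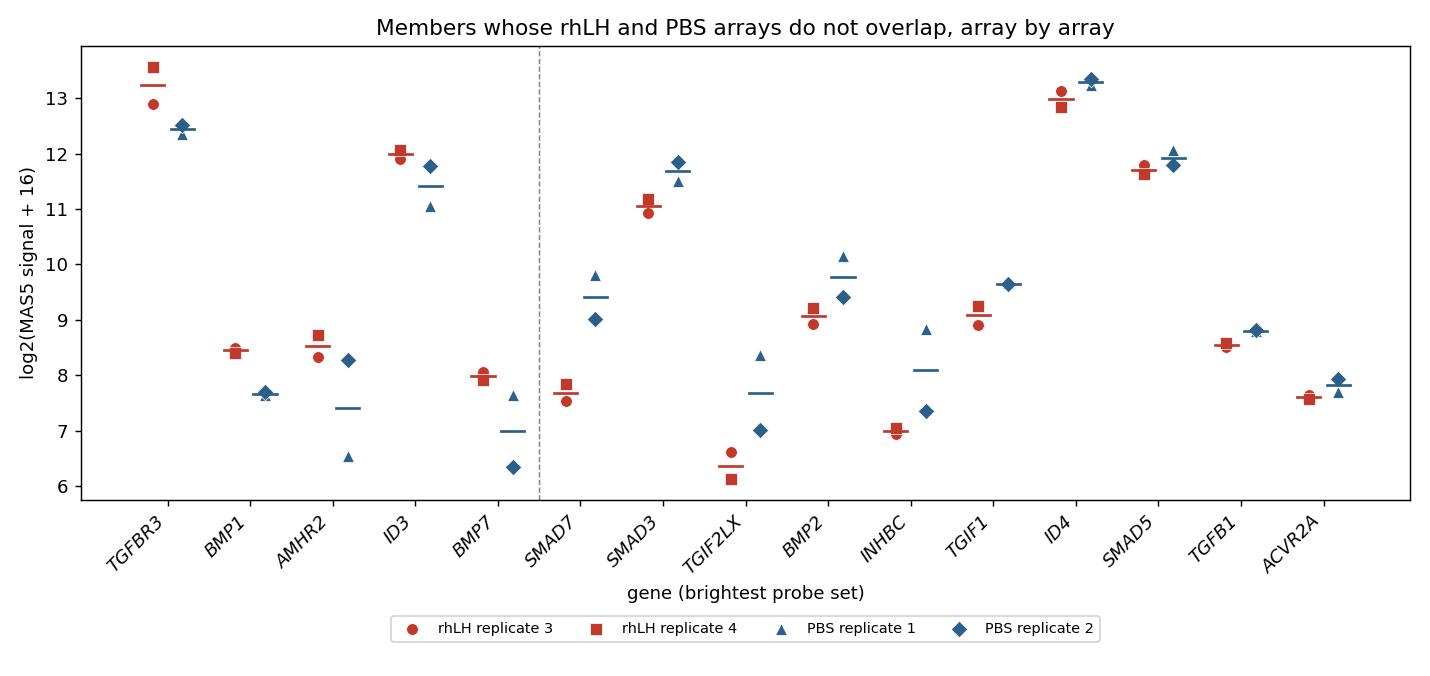
Signals of the 15 named members on each array, as log2(MAS5 signal + 16), with rhLH arrays (red) left of PBS arrays (blue) and a bar at each group mean; genes left of the dashed line were higher with rhLH. The arrays of a group lie close together for BMP1, and both PBS triangles and diamonds coincide for TGIF1, while AMHR2, BMP7, INHBC and TGIF2LX have widely spaced PBS arrays. These genes were selected because their groups do not overlap.

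Among the intracellular regulators, SMAD7, which blocks type I receptors and is itself a target of SMAD signalling, had signals of 169 and 214 on the rhLH arrays, against 876 and 502 on PBS replicates 1 and 2. Its log2 difference was −1.72 (SE 0.47, unadjusted p = 0.0106, limma adjusted p = 0.919), split into −2.11 and −1.33. The groups were separated by more than the gap between the 2 PBS arrays, and the p ranked 87 among 31659 probe sets. SMAD7 is represented by 1 probe set, as are TGIF1 and AMHR2, so no second one could be set beside it.

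SMAD6, the inhibitory SMAD of the BMP branch, had 316 and 633 with rhLH, against 518 and 923 with PBS. Its log2 difference of −0.61 (SE 0.51) was made up of −0.20 and −1.01, and the groups overlapped. A further SMAD6 probe set, below the filter, stood at −1.23.

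TGIF1 had 467 and 594 with rhLH, against 794.5 and 785 with PBS (log2 −0.57, SE 0.36, limma adjusted p = 0.919). Here both PBS arrays gave nearly the same value, and the differences against them were −0.58 and −0.56. TGIF2LX, an X-linked relative of the TGIF genes known in humans for expression in testis, had 81.6 and 53.9 with rhLH, against 315 and 113 with PBS (log2 −1.32, SE 0.70, made up of −2.002 and −0.64). Both of its rhLH signals lay under the filter level.

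The ubiquitin ligases SMURF1 and SMURF2, which mark receptors and SMADs for breakdown, had log2 differences of −0.13 and −0.17, each smaller than its SE of 0.36, and the further kept SMURF1 probe sets stood at 0.86 and 0.10. BMP2K, a kinase named for its induction by BMP2, had 425 and 410 with rhLH, against 1419 and 378 with PBS. Its difference of −0.79 thus came from PBS replicate 1 (−1.73, as against 0.14 from PBS replicate 2), and its 4 kept probe sets took both signs. SKI and SKIL, co-repressors of SMAD complexes, were below the filter, at signals of 49.4 and 127 with rhLH against 38.8 and 55.1 with PBS for SKI, and at 34.8 and 32.1 against 16.1 and 61.5 for SKIL. All 7 kept regulators had a negative difference, where 48.6% of all kept genes did, and 5 of them had one against both PBS arrays, where 26.6% of all kept genes did. TGIF2LX passed the filter through its PBS signals alone, and with no filter the count was 8 of 9, SKI (log2 0.63) being the exception. These counts describe the regulators and support nothing further. The count of negative differences was 5 of 7 with arrays centred on medians and likewise with the mean over a gene's kept probe sets. This role was put together after values had been seen, and it gets no test.

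Of the SMADs that carry the signal, SMAD3 gave 1938 and 2296 with rhLH, against 2889 and 3672 with PBS (log2 −0.62, SE 0.32, limma adjusted p = 0.919), made up of −0.45 and −0.80. Its further probe sets stood at −0.53, −0.28 and −0.87, the last below the filter, and every one of the 4 was negative against either PBS array. On 2 of the 3 kept ones the groups did not overlap. SMAD2, its partner in the same branch, had 2654 and 2522 with rhLH against 1966 and 2749 with PBS (log2 0.15, SE 0.33), with overlapping groups and a range of −0.62 to 0.15 over its 4 kept probe sets.

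SMAD4, the common partner, had 564 and 695.5 with rhLH, and 1023 and 458 with PBS (log2 −0.13, SE 0.48). Its second probe set separated the groups, with 136 and 116 against 198 and 174 (log2 −0.51). SMAD5 of the BMP branch had 3527 and 3151 with rhLH, and 4253 and 3541 with PBS (log2 −0.22, SE 0.31). The brightest SMAD5 probe set separated the groups by a narrow margin, its sign turned with arrays centred on medians (0.00914), and 5 of its 6 kept probe sets were positive, up to 0.60. No direction can therefore be given for SMAD5 from these arrays.

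**Figure D2:**
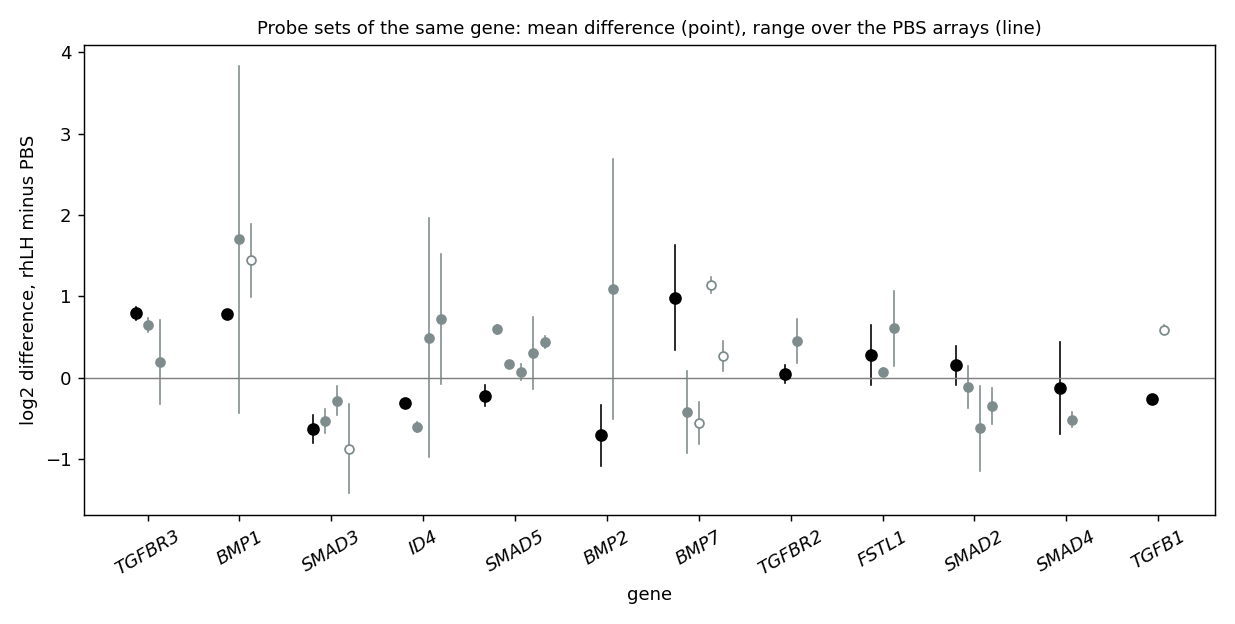
Log2 differences (rhLH minus PBS) of every probe set of 12 members with more than 1 probe set. A point is the difference of group means, a line runs between the differences against each PBS array, black marks the brightest probe set and open points lie below the filter. The points of all 4 SMAD3 probe sets lie below 0 and those of all 3 of TGFBR3 and of BMP1 above it. The line of a TGFBR3 probe set (−0.32 to 0.71) and of a BMP1 probe set (3.83 to −0.43) crosses 0. The points of SMAD5, ID4, BMP2 and BMP7 fall on both sides.

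Among the receptors, TGFBR3, which presents TGF-beta to its receptors and also binds inhibin, had 7596 and 12137 with rhLH, against 5230.0 and 5842 with PBS. Its log2 difference was 0.79 (SE 0.37, unadjusted p = 0.0758, limma adjusted p = 0.919), made up of 0.87 and 0.72. The rhLH arrays differed between themselves, and the value was 1.13 without rhLH replicate 3 and 0.46 without rhLH replicate 4. A second probe set gave 5699 and 7887 with rhLH against 4539 and 4015 with PBS (log2 0.65), and the third, designed on the same sequence by its name and with a suffix for probes that may bind similar transcripts, gave 4223 and 5531 against 6043 and 2938 (log2 0.20). Against PBS replicate 2 the 3 probe sets were close, at 0.72, 0.74 and 0.71. Against PBS replicate 1 the third stood at −0.32.

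AMHR2, the type II receptor of AMH, had 304 and 408 with rhLH, against 77.2 and 293 with PBS. Its log2 difference of 1.12 (SE 0.69) split into 1.98 and 0.25, so its size came mainly from the first. The summed signal of 6 granulosa-lutein markers was 141283 and 150956 on the rhLH arrays, against 62036 and 139757 on PBS replicates 1 and 2. The sums of endothelial, smooth muscle and pericyte, fibroblast, leukocyte and erythroid markers were likewise lowest on PBS replicate 1. A low sum there was thus not particular to granulosa-lutein markers. The part of the granulosa-lutein cells in the AMHR2 values was not tested, and in whole tissue fewer cells of a type and less RNA per cell cannot be told apart.

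TGFBR1 and TGFBR2, the signalling receptors of TGF-beta, differed by less than their SE, at 3205 and 3389 with rhLH against 3376 and 2534 with PBS for TGFBR1 (log2 0.17, SE 0.32), and at 4517 and 4098 against 4507 and 3846 for TGFBR2 (log2 0.05, SE 0.31). A second TGFBR2 probe set stood at 0.45 with separate groups, 1699 and 1497 with rhLH against 961 and 1403 with PBS. The type I receptors ACVR1 (−0.20, made up of −0.44 and 0.03) and ACVR1B (−0.52, made up of −0.89 and −0.14) had overlapping groups. ACVR2A, a type II receptor, had 183 and 175 with rhLH, against 192 and 229 with PBS (log2 −0.21, SE 0.48, made up of −0.09 and −0.33). Its difference turned to 0.0119 under quantile normalization and to 0.0145 under median centring. For ACVR2B (1.495 and −0.01), ACVRL1, a receptor of endothelial cells (1.57 and −0.45), and BMPR1B (−1.26 and 0.08), the difference was carried by PBS replicate 1. TGFBRAP1, a protein that binds TGF-beta receptors, stood at 0.22 (−0.07 and 0.51), with further kept probe sets at −0.11 and −0.06. ACVR1C was below the filter, with 29.0 and 68.0 with rhLH against 104 and 57.2 with PBS.

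Ligand genes had no common direction, with 7 positive and 5 negative differences among 12 kept members and 4 of each sign against both PBS arrays. BMP7 had 249 and 225 with rhLH, against 184 and 65.3 with PBS (log2 0.99, SE 0.63, made up of 0.34 and 1.64). The second kept BMP7 probe set lay at −0.42, on the opposite side. BMP2, a ligand made by granulosa cells, had 472 and 581 with rhLH, against 1123 and 664 with PBS (log2 −0.71, SE 0.41, made up of −1.08 and −0.33). Its second probe set stood at 1.09 (2.69 and −0.51), so that the 2 BMP2 probe sets gave opposite signs against PBS replicate 1 and the same sign against PBS replicate 2.

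TGFB1 had 350 and 368 with rhLH, against 431 and 434 with PBS, a small gap of −0.26 (SE 0.39) that was alike against both PBS arrays and became −0.03 with arrays centred on medians. A TGFB1 probe set below the filter stood at 0.59. TGFB3 had 776 and 525 with rhLH, against 341 and 564 with PBS (log2 0.52), with overlapping groups, and a second probe set, below the filter, stood at −1.22.

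INHBB, the activin and inhibin betaB subunit, had 271 and 177 with rhLH, against 3.12 and 284 with PBS. The log2 difference of 1.64 (SE 1.30) split into 3.62 and −0.35. INHBC, the betaC subunit, had 106 and 116 with rhLH, against 439 and 148 with PBS (log2 −1.10, SE 0.66, made up of −1.84 and −0.37). AMH had 90.6 and 61.6 with rhLH, against 47.8 and 238 with PBS (log2 −0.48, made up of 0.51 and −1.48). It passed the filter through PBS replicate 2 alone, the other arrays lying under the filter level. In all 3 a single PBS array set most of the difference.

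Of the other kept ligands, BMP4 stood at −0.53 (−0.95 and −0.10), BMP3 at 0.32, BMP6 at 0.16 and GDF11 at 0.27, each within about 1 SE of 0 or little beyond it. GDF15, a cytokine of cell stress, stood at 0.48, made up of 1.28 and −0.32. The oocyte ligand BMP15, BMP10, GDF1, GDF2, GDF3, GDF5 and GDF6 were below the filter.

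Among proteins that process or store ligands, BMP1, a protease that cleaves procollagens and also the antagonist chordin, had 346 and 324 with rhLH, against 183 and 191 with PBS (log2 0.79, SE 0.44, unadjusted p = 0.125, limma adjusted p = 0.919). The arrays agreed closely within each group, and the differences against the 2 PBS arrays were 0.81 and 0.76. A further BMP1 probe set, below the filter, gave 133 and 107 with rhLH against 20.5 and 51.8 with PBS (log2 1.45). The other kept one gave 348 and 523 against 15.1 and 580, at 3.83 over PBS replicate 1 and −0.43 against PBS replicate 2.

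LTBP1, which binds latent TGF-beta to the matrix, had 2086 and 4643 with rhLH, against 6715 and 4008 with PBS (log2 −0.73, SE 0.50), with overlapping groups and a second kept probe set at 0.05. LTBP2, a fibrillin-related matrix protein, had 850 and 920 with rhLH, against 219 and 940 with PBS (log2 0.93, made up of 1.94 and −0.09). Both other kept LTBP2 probe sets were negative, at −0.47 with separate groups (408 and 484 with rhLH, against 592 and 658 with PBS) and at −0.62. TGFBI, a matrix protein induced by TGF-beta, gave 2905 and 628 on the rhLH arrays, farther apart than the 568 and 1537 of the PBS arrays.

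The groups overlapped for 4 of 5 kept members placed among the secreted antagonists, beside 7441 of all 10998 kept genes. This count describes the members only. FSTL3, a follistatin-like binder of activin, had 7841 and 3329 with rhLH, against 740 and 6099 with PBS, so that its log2 difference of 1.25 (SE 1.00) rested on PBS replicate 1 (2.76, as against −0.25). FSTL1 stood at 0.28, with its 3 kept probe sets between 0.07 and 0.61, and FSTL4 at 0.02, made up of −1.37 and 1.40. The second kept FSTL4 probe set had 47.5 and 81.9 with rhLH, against 173 and 134 with PBS (log2 −1.10, made up of −1.26 and −0.93), so the 2 had opposite signs against PBS replicate 2. Both rhLH signals of this second probe set lay under the filter level, and it passed the filter through its PBS signals alone. The BMP antagonists CHRD and GREM1 stood at −0.11 and −0.21. GREM1 was the member with separate groups, at 139 and 132 with rhLH, against 178 and 143 with PBS. CHRDL1, CHRDL2 and FSTL5 were below the filter.

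**Figure D3:**
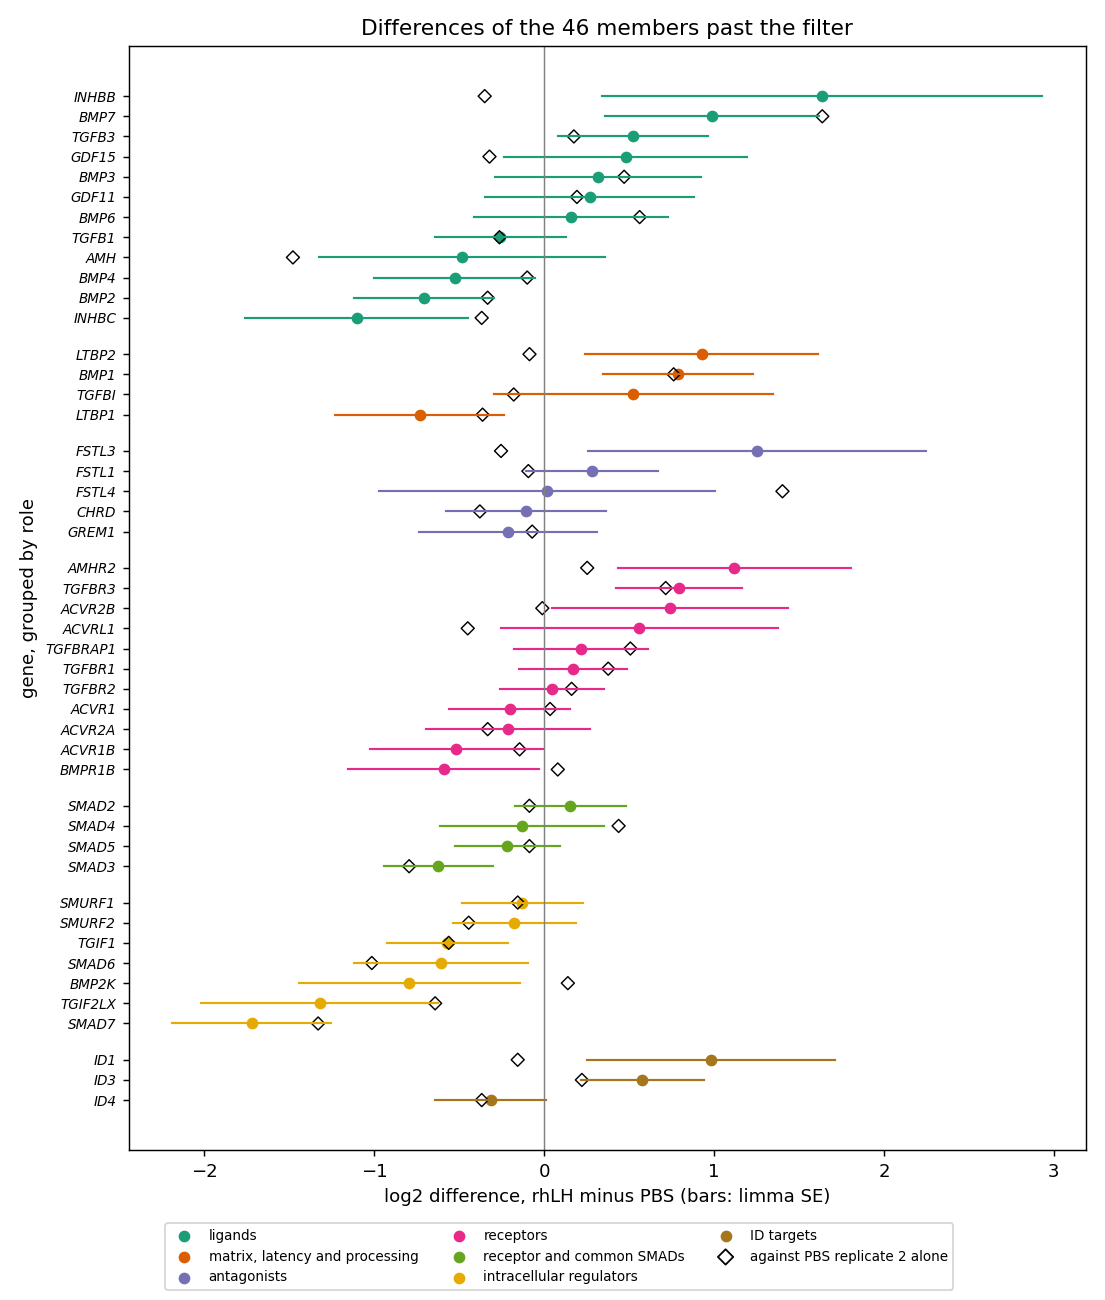
Log2 difference (rhLH minus PBS) of each of the 46 kept members, grouped by role, with limma's SE as a bar; open diamonds give the difference against PBS replicate 2 alone. The 7 intracellular regulators all lie left of 0, SMAD7 farthest at −1.72, while for INHBB, FSTL3, LTBP2 and ID1 the diamond lies on the other side of 0 from the point.

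The ID genes, whose products block basic helix-loop-helix factors and which are known targets of BMP signalling, had no common direction. ID1 had 3207 and 3674 with rhLH, against 779 and 3826 with PBS (log2 0.98, SE 0.73, made up of 2.12 and −0.16). ID3 had 3832 and 4275 with rhLH, against 2112 and 3468 with PBS (log2 0.58, SE 0.36, made up of 0.93 and 0.22), and its second kept probe set stood at 0.02. ID4 had 8886 and 7335 with rhLH, against 9676 and 10421 with PBS (log2 −0.31, SE 0.33). A second ID4 probe set separated the groups as well, with 2875 and 3061 against 4335 and 4719 (log2 −0.61), whereas the other 2 kept ones stood at 0.49 and 0.72. Against PBS replicate 2 all 4 kept ID4 probe sets were negative, between −0.97 and −0.07.

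Comparing the members by PBS array gave 2 patterns, whose limits were set after values had been seen. In 5 members, SMAD7, TGIF1, TGIF2LX, BMP1 and TGFBR3, the difference was at least 0.5 in 1 direction against either PBS array. This is a share of 10.9%, beside 8.25% of all kept genes. TGIF2LX passed the filter through its PBS signals alone, so the count describes these members and supports nothing further. In 14 members it was at least 1 against PBS replicate 1 and under 0.5 against PBS replicate 2, a share of 30.4%, beside 22.2% of all kept genes. PBS replicate 1 was the lower array in 9 of these 14, INHBB, FSTL3, ID1, AMHR2, LTBP2, ACVRL1, ACVR2B, GDF15 and TGFBI, and the higher in 5, INHBC, BMP2K, BMPR1B, LTBP1 and BMP2. Of the 22 members with at least 2 kept probe sets, 10 had 1 sign of the difference on all of them. SMAD3, TGFBR3, BMP1, FSTL1 and SMAD4 were among these. Against PBS replicate 2 alone, a kept probe set of BMP1 (−0.43), FSTL1 (−0.09) and SMAD4 (0.44) took the other sign. The share over all genes is not given here.

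**Figure D4:**
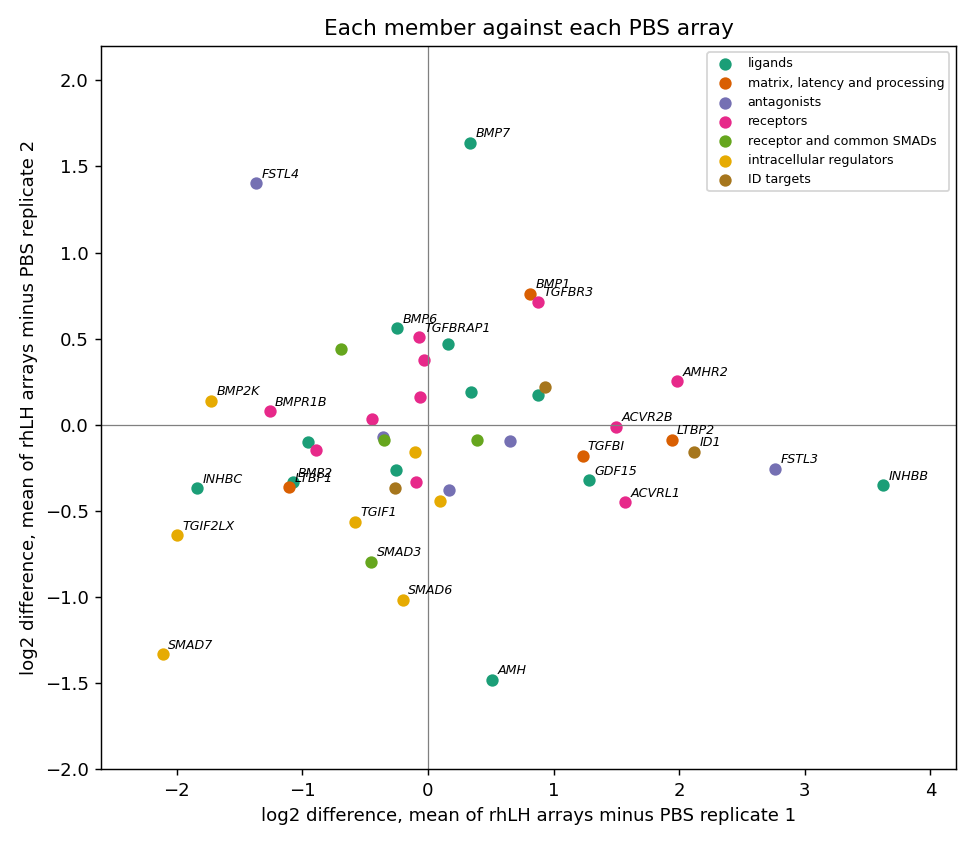
Log2 difference of the mean of the rhLH arrays from PBS replicate 1 (horizontal) and from PBS replicate 2 (vertical) for the 46 kept members, coloured by role. The axes share the rhLH arrays. SMAD7, at −2.11 and −1.33, is farthest out among genes negative on both axes, BMP1 and TGFBR3 lie together above 0.7 on both, and a row of genes from ACVR2B to INHBB spreads along the horizontal axis only.

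Genes of the pathway outside the pattern were taken from 3 lists chosen with earlier results of these data known, and in each 0 genes passed the limma test. Of 20 kept extracellular modulators, the groups did not overlap for 1 higher and 7 lower genes, beside 16.3% and 16.1% of all kept genes, and the median was −0.13. With arrays centred on medians, an alternative added after the data were seen, 2 were higher and 5 lower. BAMBI, a pseudoreceptor that dampens TGF-beta and BMP signals, had 4884 and 1488 with rhLH, against 665 and 1153 with PBS (log2 1.60, SE 0.62, made up of 1.99 and 1.21). The integrin subunits ITGB8 and ITGAV, which together release latent TGF-beta, had 76.0 and 72.5 with rhLH against 480.5 and 155 with PBS for ITGB8 (log2 −1.69, with both rhLH signals under the filter level), and 407 and 256 against 551 and 645 for ITGAV (log2 −0.85, made up of −0.74 and −0.96).

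Of 22 kept TGF-beta and BMP target genes, both rhLH arrays exceeded both PBS arrays for 2 and lay under them for 5, and the median was −0.05. Without centring, 16.3% and 16.1% of all kept genes were separated on the higher and the lower side. Centring on medians made the counts 3 higher and 2 lower, for which no share of all genes is given here. CCN2, a matricellular protein and classic TGF-beta target, had 3354 and 7021 with rhLH, against 9097 and 12379 with PBS (log2 −1.13, SE 0.46, made up of −0.90 and −1.35), but its further probe sets, at −0.49 and −1.22, stood at 0.06 and 0.11 against PBS replicate 2. KLF10, an early TGF-beta response factor, had 2525 and 3393 with rhLH, against 5457 and 4794 with PBS (log2 −0.80, SE 0.33, made up of −0.89 and −0.71). SPHK1, which makes sphingosine 1-phosphate, had 334 and 214 with rhLH, against 75.4 and 155 with PBS (log2 1.18).

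Of 18 kept SMAD partners and turnover genes, 4 were separated on the higher and 6 on the lower side, and the median was −0.22. The shares of all kept genes, also without centring, were 16.3% and 16.1%. With arrays centred on medians the counts were 4 and 3, again with no share of all genes beside them. ZFYVE9, which anchors SMAD2 and SMAD3 at endosomes, had 3349 and 3193 with rhLH, against 2535 and 2090.2 with PBS (log2 0.50, SE 0.31), and its further probe sets stood at 0.99, 0.41 and 1.62, the last below the filter. On the brightest probe sets of EP300 (−1.71 and −0.04) and TAB1 (1.12 and 0.00) the difference lay with PBS replicate 1. The further kept EP300 probe sets ranged from −0.88 to 0.20, and that of TAB1 stood at −0.02. Of the genes set aside from the pattern, FST had 3642 and 3919 with rhLH against 896 and 1231 with PBS (log2 1.83), INHA 36496 and 35762 against 7756 and 44827 (log2 0.95), and INHBA stood at 0.07 on its brightest probe set. A second INHBA probe set stood at 1.10, split into 2.65 and −0.44.

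Markers of other cells gave the following summed signals. For 9 endothelial markers they were 23490 and 27010.0 with rhLH, against 22398 and 25577 with PBS. For 5 smooth muscle and pericyte markers they were 15655 and 19286 with rhLH against 10718 and 15831 with PBS, for 5 fibroblast markers 54775 and 60830 against 32598 and 63334, and for 6 leukocyte markers 23241 and 17897 against 9279 and 35710. Each of these sums was lowest on PBS replicate 1, but the sums are set by the brightest markers and the single markers differed. PBS replicate 1 was the lowest array for 6 of 9 endothelial, 2 of 5 smooth muscle, 3 of 5 fibroblast, 4 of 6 leukocyte and 5 of 6 granulosa-lutein markers. Among these markers it was the highest for PECAM1, TEK, COL3A1 and LUM. The granulosa-lutein markers CYP19A1, STAR, HSD3B2, NR5A2 and INHA lay above the filter level on every array. HSD17B1 did so on the rhLH arrays only, with 67.1 and 51.4 on PBS replicates 1 and 2. No marker signal was at 0, and the part of these cells in the members' values was not tested.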

How the data were processed

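RNA from 4 samples of corpus luteum was measured on Affymetrix rhesus arrays, and the deposited values are linear probe set intensities, made with MAS5 according to the submitters' processing notes. Their 2% trimmed mean was 500.0 on every array. The scaling target was not given in the sources used here, and mismatches of the rhesus probes to bonnet monkey sequence were not examined.

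Of 52865 probe sets, 99 controls were set aside. Signals were taken as log2(signal + 16) with no further normalization. The 31659 probe sets with a mean above the 40th percentile were tested, rhLH against PBS, in R 4.3.3 by limma 3.58.1 (lmFit and trended eBayes, two-sided p adjusted by Benjamini-Hochberg). Fold differences come from mean log2 values, and the pseudocount understates those of dim probe sets. Symbols came from the platform annotation provided (24956 probe sets with 1 symbol, 361 with several, 27449 with none). A gene was represented by its brightest probe set.

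Members and lists were chosen with earlier results of these data known. Named in full are up to 10 members per direction with the smallest p among those whose groups do not overlap, and up to 3 genes per pathway list. Other members were given by role, chosen after values were seen. The number of arrays, 2 in each group, sets the precision. Alternatives covered normalization, pseudocounts of 1 and 64, filters, variance priors, array weights, the mean over probe sets and leaving out each array.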

Additional observations from a re-analysis of the deposited data

How the results depend on the processing

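Over all alternatives that kept both PBS arrays, 0 members passed limma at an adjusted p of 0.05. The count was also 0 without PBS replicate 1 and was 12 (6 higher, 6 lower) without PBS replicate 2, where 25.8% of all probe sets were called against PBS replicate 1 as the lone control, assumed to vary like the rhLH arrays. These 12 were AMHR2, FSTL3, ID1, ID3, INHBB and LTBP2, higher, and BMP2, BMP2K, BMPR1B, INHBC, SMAD7 and TGIF2LX, lower. Leaving out single arrays gave 0 to 7 members at least 2-fold higher and 1 to 6 at least 2-fold lower, and SMAD7 was among the lower ones in each case. Without PBS replicate 1 these were BMP7 and FSTL4 (2 higher, each with another kept probe set that was negative) and AMH and SMAD7 (2 lower), and without rhLH replicate 3 TGFBR3 (1 higher). AMH lay above the filter level on PBS replicate 2 alone, and the negative FSTL4 probe set on the PBS arrays alone. No share of all kept genes under the 2-fold rule is given here with an array left out, so these counts describe the members only. With the filter at the 70th percentile 19 members were dropped, SMAD7 among them, and the lower count was 0. The median of the members was 0.18 with arrays centred on medians, where that of all kept probe sets was 0.19. It was −0.05 for the members as reported, and between −0.10 and −0.04 when an array was left out.

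Of 173 values of the 15 named members under 12 alternatives, 161 kept their direction and their side of the threshold and 6 passed it, all without PBS replicate 2. The other 6 reversed: ACVR2A to 0.0119 under quantile normalization and to 0.0145 with arrays centred on medians, SMAD5 to 0.00914 with centred arrays, and BMP2 to 0.19, ID4 to 0.0746 and SMAD5 to 0.23 with the mean over kept probe sets, where their probe sets disagree. The filters could not change a log2 difference, and array weights left each one as it was. The values under these settings therefore say nothing about how stable a direction is. SMAD7 ranged from −2.11 to −1.33, SMAD3 from −0.80 to −0.40, TGIF1 from −0.74 to −0.34 and BMP1 from 0.75 to 1.25. No paired analysis was possible because the groups share no replicate numbers.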
